A study of Mus musculus with 4 samples.

Results

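The genes that coat lipid droplets and control the release of their fatty acids were followed in the liver of ob/ob mice fed 4 diets. There were 10 of these genes among the 24346 gene symbols of the tables, and they were taken by symbol, with earlier results of these data known: the perilipins Plin2, Plin3, Plin4 and Plin5, the CIDE genes Cidea, Cideb and Cidec, and the lipolysis genes G0s2, Pnpla2 and Pnpla3. All 10 were above 0 FPKM (a read density corrected for the length of the gene and the depth of the library) in the 4 libraries, and 9 of them were at or above 10 FPKM in each library. The exception was Pnpla3.

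The mice were male ob/ob animals, which lack leptin and are obese, and they were 6 weeks old when feeding began. Feeding lasted 4 weeks with 1 of 4 diets. CD was a regular chow, WD was a western type diet rich in fat, and CD+7KC and WD+7KC were the same diets with 0.01% 7-ketocholesterol (7KC), an oxidized form of cholesterol. WD also held more sucrose than CD, and its fat was cocoa butter where that of CD was corn oil, per the study's methods. The labels call CD normal chow, and per the study's methods all 4 diets contained 1% cholesterol, so that the groups without 7KC were cholesterol-fed as well, and lean mice were not part of the sequencing. Each group had 1 library of whole liver, and the sources used here do not say whether it came from 1 mouse or from a pool. The differences below therefore could not be checked against replicates, and they carry no p-values. The 95% intervals cover counting error between 2 libraries and not the variation between mice.

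A lipid droplet is a core of triglyceride and cholesterol ester wrapped in a single phospholipid layer. Perilipins sit on that layer and shield the core from lipases, while CIDE proteins help droplets exchange lipid and grow. Pnpla2 encodes adipose triglyceride lipase (ATGL), which takes the first fatty acid off triglyceride, and G0s2 encodes a small protein that binds and inhibits ATGL. In fatty liver, hepatocytes take on droplet proteins that are otherwise typical of fat tissue, Cidea and Cidec among them.

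The libraries held an estimated 9310000 to 12060000 fragments, and the FPKM values summed to 602059 in WD+7KC against 696062 to 715605 in the other libraries. Because of that lower sum, rescaling to equal sums (as in TPM) moved the all-gene median of the log2 fold change from 0.002 to 0.21 in WD+7KC relative to WD and from 0.003 to 0.20 in WD+7KC relative to CD+7KC. Changes that involve WD+7KC are given on both scales where their sign or their interval depends on it. The hepatocyte gene Alb lay between 30010 and 35980 FPKM. Of the 7 fat tissue markers, Plin1 was listed at 0 FPKM in the 4 libraries and Adipoq was at most 0.0885 FPKM, while Cfd was at 220 FPKM in CD against 63.2 in CD+7KC, and 1.47 in WD against 0.115 in WD+7KC. The 7 fat tissue markers summed to 311 FPKM in CD against 137 in CD+7KC, and 112 in WD against 149 in WD+7KC. The 13 macrophage and Kupffer cell markers summed to 258 FPKM in CD against 384 in CD+7KC, and 451 in WD against 853 in WD+7KC. The 6 hepatocyte markers summed to 54620 FPKM in CD against 45980 in CD+7KC, and 55220 in WD against 42890 in WD+7KC. The 7 stellate cell markers stayed between 171 and 206 FPKM in sum, and the sum of the 4 skeletal muscle markers was at most 0.248 FPKM, with Ckm and Myh4 listed at 0 in the 4 libraries. In whole liver, fewer cells of a type and less RNA per cell cannot be told apart, and the part of the macrophage and hepatocyte markers in the results below was not tested.

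**Figure D1:**
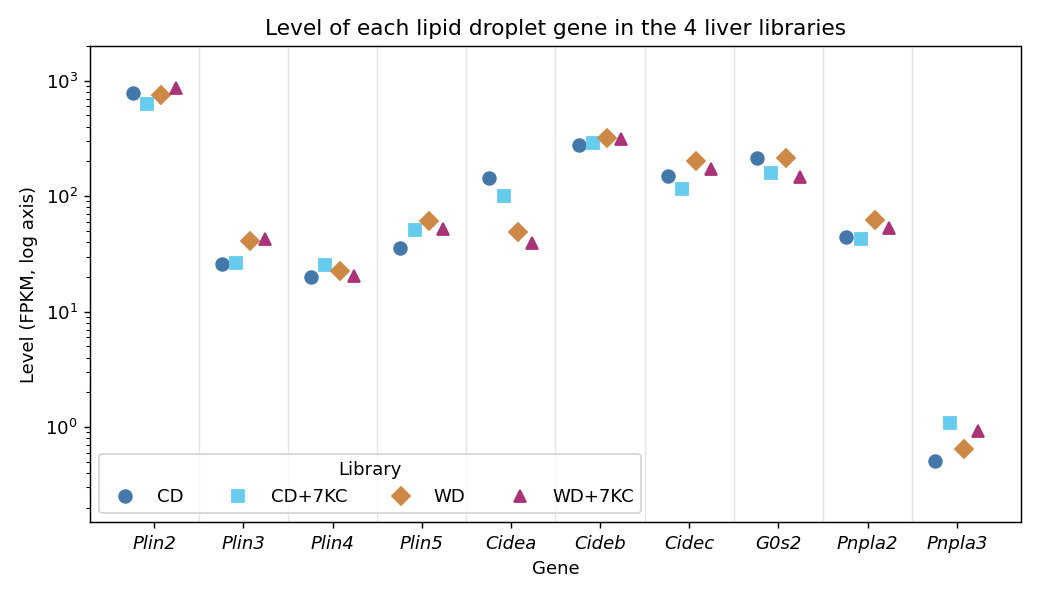
Level of the 10 genes (FPKM, log axis) in the CD, CD+7KC, WD and WD+7KC libraries, 1 point per library. Plin2 is the highest gene in each library (629 to 868 FPKM), Pnpla3 the lowest (0.51 to 1.08 FPKM), and Cidea has the widest spread (39.7 to 143 FPKM).

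The order of the 10 genes by FPKM was stable at its ends. Plin2 and Cideb were the highest in each library, Plin4 was the ninth and Pnpla3 the tenth. G0s2 and Cidec came next to Cideb, with G0s2 above Cidec in CD, CD+7KC and WD and below it in WD+7KC. Cidea was in place 5 in CD and CD+7KC, in place 7 in WD and in place 8 in WD+7KC. Together the perilipins Plin2 to Plin5 summed to 862 FPKM in CD against 732 in CD+7KC, and 881 in WD against 982 in WD+7KC, and the CIDE genes to 568 FPKM in CD against 501 in CD+7KC, and 573 in WD against 523 in WD+7KC.

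Sequence upstream of the start site is shown for Plin2 and Plin5, whose differences with 7KC had opposite signs under the 2 diets (for Plin5 beyond counting error on the deposited scale only), for G0s2, which was lower with 7KC under both, and for Cidec, which was higher under WD. The sequences come from RefSeq (GRCm38.p6), which had a window for 9 of the 10 genes, and they are given 5′ to 3′ on the strand of the gene, ending just before the first base of the gene in GENCODE. Capitals mark the motifs AGGTCA, the core site bound by nuclear receptors such as the PPARs, and CCAAT, the NF-Y motif, on either strand.
Plin2, chr4:86670061-86670309, minus strand: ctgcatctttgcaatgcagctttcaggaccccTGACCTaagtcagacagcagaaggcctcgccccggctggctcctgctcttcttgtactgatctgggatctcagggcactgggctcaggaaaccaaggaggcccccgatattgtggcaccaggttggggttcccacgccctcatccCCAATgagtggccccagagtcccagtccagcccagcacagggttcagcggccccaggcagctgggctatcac
Plin5, chr17:56117597-56117798, minus strand: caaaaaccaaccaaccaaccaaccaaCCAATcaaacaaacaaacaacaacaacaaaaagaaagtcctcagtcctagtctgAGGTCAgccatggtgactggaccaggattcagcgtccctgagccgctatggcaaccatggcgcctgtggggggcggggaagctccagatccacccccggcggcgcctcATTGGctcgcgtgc
G0s2, chr1:193273218-193273438, minus strand: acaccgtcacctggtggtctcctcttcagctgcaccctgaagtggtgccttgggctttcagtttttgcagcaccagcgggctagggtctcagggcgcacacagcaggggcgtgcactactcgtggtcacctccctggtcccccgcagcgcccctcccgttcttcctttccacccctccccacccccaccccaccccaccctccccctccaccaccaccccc
Cidec, chr6:113435761-113436010, minus strand: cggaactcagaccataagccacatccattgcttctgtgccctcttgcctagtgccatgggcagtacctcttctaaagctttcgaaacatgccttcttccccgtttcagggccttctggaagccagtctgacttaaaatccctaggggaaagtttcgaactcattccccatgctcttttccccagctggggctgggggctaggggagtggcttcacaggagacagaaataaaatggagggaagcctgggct
The first base of AGGTCA stood 218 bases before the RefSeq start site of Plin2, on the opposite strand, and 170 bases before that of Plin5. It was found in the first 250 bases before the start site in 14% of the 32851 RefSeq windows. The DR1 element, a direct repeat of AGGTCA with 1 base between the copies, was in none of the windows of the 9 genes and in 0.0335% of all windows. CCAAT was found in 33.8% of all windows, CACGTG in 6.02% and TATAAA in 12.4%. Of these 3, CCAAT was present upstream of Plin2, Plin3, Plin4, Plin5 and Pnpla3, TATAAA upstream of Cideb, and CACGTG upstream of none of the 9 genes. The windows shown for G0s2 and Cidec held none of the 5 motifs searched, which says only that these letters are not there.

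Plin2 (chromosome 4, 86648386 to 86670060, GRCm38) encodes the main perilipin of the fatty liver cell, whose protein is stabilised by the droplets it coats. It was at 781 FPKM in CD against 629 in CD+7KC, and 757 in WD against 868 in WD+7KC. It ranked between place 75 and place 146 among all genes by FPKM. Its level was highest in WD+7KC and lowest in CD+7KC, 1.38-fold apart. Its level in WD+7KC exceeded that in WD by a log2 ratio of 0.20 (0.16 to 0.23, the 95% counting interval) that was 0.41 (0.38 to 0.45) once rescaled. It was lower in CD+7KC than in CD, with a log2 ratio of -0.31 (-0.35 to -0.28). Under the diets without 7KC, Plin2 differed little, with a log2 ratio of -0.04 in WD relative to CD (-0.08 to -0.01) that included 0 after rescaling (-0.05 to 0.02). Between WD+7KC and CD+7KC the log2 ratio of Plin2 was 0.46 (0.43 to 0.50).

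Plin3 (chromosome 17, 56277476 to 56292873) encodes a perilipin that is found in most tissues and moves from the cytosol to nascent droplets. It was at 25.9 FPKM in CD against 26.4 in CD+7KC, and 41.1 in WD against 42.2 in WD+7KC. Both WD libraries were above both CD libraries, and libraries of the same diet did not differ beyond counting error on the deposited scale. The log2 ratio was 0.67 in WD relative to CD (0.55 to 0.79) and 0.67 in WD+7KC relative to CD+7KC (0.56 to 0.79). With 7KC it was 0.03 in CD (-0.10 to 0.16) and 0.03 in WD (-0.07 to 0.14), and in WD it became 0.25 (0.15 to 0.35) after rescaling.

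Plin4 and Plin5 lie next to each other on chromosome 17 with 1797 bases between them (56100591 to 56109803 and 56111601 to 56117596). Plin5 encodes the perilipin of oxidative tissues, which tethers droplets to mitochondria and binds ATGL. It was at 35.7 FPKM in CD against 51.0 in CD+7KC, and 60.5 in WD against 51.9 in WD+7KC. CD was the low library, and CD+7KC and WD+7KC did not differ beyond counting error on the deposited scale, with a log2 ratio of 0.02 in WD+7KC relative to CD+7KC (-0.10 to 0.15), whereas after rescaling WD+7KC was higher, with 0.23 (0.11 to 0.36). Plin5 was higher in CD+7KC than in CD by 0.52 on the log2 scale (0.37 to 0.66). Among genes of at least 10 FPKM, 2.58% were as far or further above 0 in that comparison. In WD relative to CD the log2 ratio of Plin5 was 0.76 (0.62 to 0.90). It was -0.22 (-0.35 to -0.10) in WD+7KC relative to WD, and -0.006 (-0.13 to 0.12) after rescaling.
Plin4 encodes a long perilipin that is abundant in fat tissue and coats small droplets. It was at 20.02 FPKM in CD against 25.3 in CD+7KC, and 22.4 in WD against 20.3 in WD+7KC. It was highest in CD+7KC. CD and WD+7KC did not differ beyond counting error on the deposited scale (log2 ratio of WD+7KC to CD 0.02, -0.10 to 0.13), but after rescaling WD+7KC was higher, with 0.27 (0.15 to 0.38). Its log2 ratio was 0.34 in CD+7KC relative to CD (0.23 to 0.45) and -0.15 in WD+7KC relative to WD (-0.26 to -0.03), which turned to 0.07 (-0.05 to 0.18) after rescaling. Between diets it was 0.16 in WD relative to CD (0.05 to 0.28) and -0.32 in WD+7KC relative to CD+7KC (-0.43 to -0.21).

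A share within 1 library does not depend on how the libraries are scaled. Of the summed FPKM of Plin2 to Plin5, Plin2 made up 90.5% in CD against 86.0% in CD+7KC, and 85.9% in WD against 88.4% in WD+7KC. Plin5 made up 4.14% in CD against 6.98% in CD+7KC, and 6.87% in WD against 5.28% in WD+7KC. The ratio of Plin5 to Plin2 was thus higher in CD+7KC than in CD, by 0.83 on the log2 scale (0.68 to 0.97), and in WD+7KC it was below that of WD, with -0.42 (-0.55 to -0.29).

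Cidea (chromosome 18, 67343604 to 67367785) encodes a CIDE protein known from brown fat that appears in the liver of obese mice. It was at 143 FPKM in CD against 99.5 in CD+7KC, and 49.0 in WD against 39.7 in WD+7KC. The 4 levels stood apart beyond counting error on the deposited scale, both CD libraries were above both WD libraries, and the highest level was 3.60-fold the lowest. Cidea was 2.91-fold lower in WD than in CD, a log2 fold change of -1.54 (interval of the log2 ratio -1.70 to -1.38), and 2.51-fold lower in WD+7KC than in CD+7KC, a log2 fold change of -1.32 (-1.49 to -1.16), or -1.12 (-1.28 to -0.95) after rescaling. With 7KC its log2 ratio was -0.52 in CD (-0.64 to -0.40) and -0.31 in WD (-0.50 to -0.11), the last of which included 0 after rescaling, with -0.09 (-0.29 to 0.11). The non-coding gene B430212C06Rik overlaps Cidea by 500 bases on the opposite strand, and it was at 3.41 FPKM in CD against 2.06 in CD+7KC, and 0.698 in WD against 0.916 in WD+7KC. The libraries were made with a stranded kit, but the sources used here do not say whether strand was used in the counting, so reads of an overlapping pair may not be told apart. Fat tissue markers differed among themselves between the diets. Cfd was lower in both WD libraries than in both CD libraries, as given above, while Fabp4 was at 83.5 FPKM in CD against 66.5 in CD+7KC, and 104 in WD against 143 in WD+7KC, and was thus higher in both WD libraries. Ucp1, which defines brown fat, was at most 0.126 FPKM in any library. The part of these markers in the Cidea values was not tested.

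Cidec (chromosome 6, 113424634 to 113435760) encodes the CIDE protein that makes large droplets in white fat and in steatotic hepatocytes. It was at 148 FPKM in CD against 115 in CD+7KC, and 202 in WD against 171 in WD+7KC. The WD libraries were the high ones, and within each diet the library with 7KC was lower. The log2 ratio was 0.45 in WD relative to CD (0.37 to 0.53) and 0.57 in WD+7KC relative to CD+7KC (0.49 to 0.65). With 7KC it was -0.36 in CD (-0.45 to -0.28) and -0.24 in WD (-0.31 to -0.17), the latter -0.02 (-0.10 to 0.05) after rescaling.
Cideb (chromosome 14, 55754050 to 55758458) encodes the CIDE protein of normal hepatocytes, which also takes part in the lipidation of very low density lipoprotein. It was at 277 FPKM in CD against 286 in CD+7KC, and 322 in WD against 313 in WD+7KC, with a highest level only 1.16-fold the lowest. The log2 ratio with 7KC was 0.05 in CD (-0.02 to 0.12) and -0.04 in WD (-0.11 to 0.03), and after rescaling 0.09 (0.02 to 0.16) and 0.17 (0.11 to 0.24). Between diets it was 0.22 in WD relative to CD (0.14 to 0.29) and 0.13 in WD+7KC relative to CD+7KC (0.06 to 0.19). Cideb overlaps Nop9 on the opposite strand over 1451 bases, and Nop9 was between 4.31 and 4.80 FPKM.

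Within the CIDE genes the makeup differed between diets. Cidea made up 25.2% of their summed FPKM in CD against 19.9% in CD+7KC, and 8.56% in WD against 7.58% in WD+7KC. Cidec made up 26.1% in CD against 23.0% in CD+7KC, and 35.3% in WD against 32.7% in WD+7KC. Cidec and Cidea were close to equal in the CD libraries, with a ratio of 1.04 in CD and 1.16 in CD+7KC. Cidec exceeded Cidea in the WD libraries, with a ratio of 4.12 in WD and 4.32 in WD+7KC. The log2 difference of this ratio was 1.99 in WD relative to CD (1.81 to 2.17) and 1.90 in WD+7KC relative to CD+7KC (1.71 to 2.08). It was 0.07 (-0.14 to 0.28) in WD+7KC relative to WD.

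**Figure D2:**
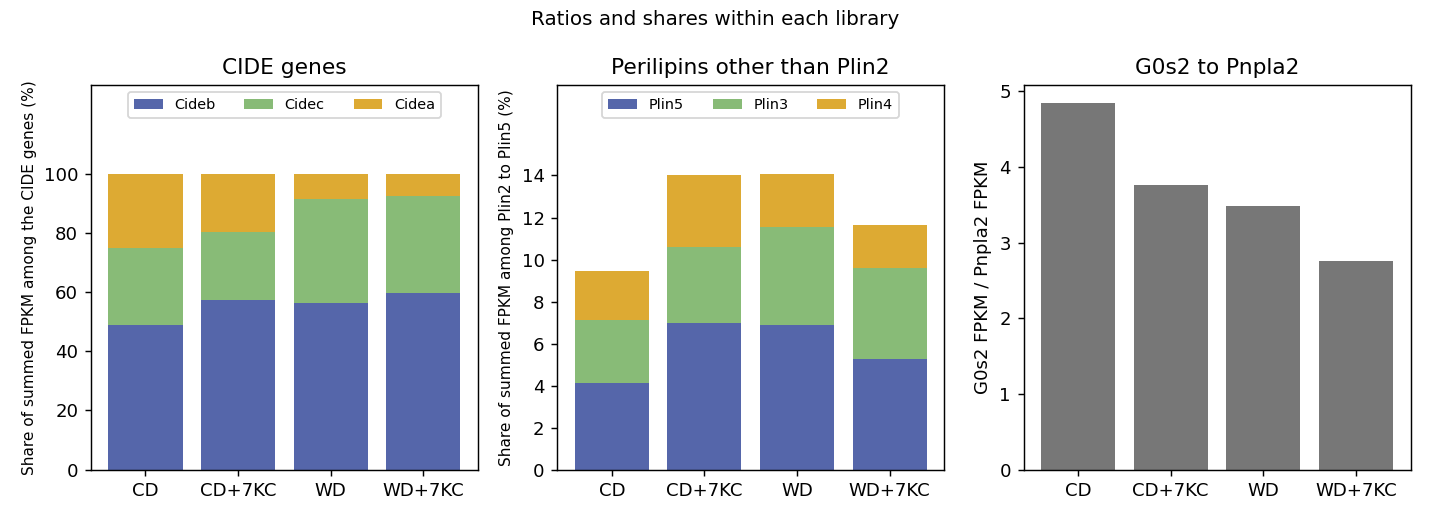
Bars show values within each library: the share of Cideb, Cidec and Cidea in the summed FPKM of the CIDE genes (left, %), the share of Plin5, Plin3 and Plin4 in the summed FPKM of Plin2 to Plin5 (middle, %), and the ratio of G0s2 to Pnpla2 FPKM (right). Cidea takes 25.2% of the CIDE sum in CD and 7.58% in WD+7KC, and the ratio of G0s2 to Pnpla2 is 4.84 in CD and 2.75 in WD+7KC.

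G0s2 (chromosome 1, 193272161 to 193273217), the inhibitor of ATGL, was at 214 FPKM in CD against 160 in CD+7KC, and 216 in WD against 145 in WD+7KC. The libraries without 7KC were high and equal within counting error, and both libraries with 7KC were lower. The log2 ratio was -0.42 in CD+7KC relative to CD (-0.53 to -0.31) and -0.57 in WD+7KC relative to WD (-0.69 to -0.46), or -0.35 (-0.47 to -0.24) after rescaling. Of the 10 genes, G0s2 was the furthest below 0 in WD+7KC relative to WD. Of genes of at least 10 FPKM, 4.13% were at least as low in the comparison of the CD libraries and 3.25% in that of the WD libraries. Between WD and CD its log2 ratio was 0.02 (-0.09 to 0.12). Between WD+7KC and CD+7KC it was -0.13 (-0.25 to -0.02), and 0.08 (-0.04 to 0.19) after rescaling. G0s2 lies within Lamb3, which runs on the opposite strand and was between 2.10 and 4.48 FPKM. The 6 hepatocyte markers had a median log2 fold change with 7KC of -0.27 in CD, with 5 lower and 1, Ass1, higher (0.46). In WD the median was -0.48, with 6 lower. After rescaling the medians were -0.23 in CD and -0.26 in WD. The part of these markers in the G0s2 values was not tested.

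Pnpla2 (chromosome 7, 141455198 to 141460743), which encodes ATGL, was at 44.2 FPKM in CD against 42.5 in CD+7KC, and 62.0 in WD against 52.9 in WD+7KC. The WD libraries were the high ones. The log2 ratio was 0.49 in WD relative to CD (0.35 to 0.63) and 0.32 in WD+7KC relative to CD+7KC (0.18 to 0.45). With 7KC it was -0.06 in CD (-0.20 to 0.09) and -0.23 in WD (-0.36 to -0.10), or -0.01 (-0.14 to 0.12) after rescaling. The ratio of the inhibitor to the enzyme, G0s2 to Pnpla2, was 4.84 in CD against 3.76 in CD+7KC, and 3.49 in WD against 2.75 in WD+7KC. It was lower with 7KC under both diets, by -0.36 on the log2 scale in CD (-0.55 to -0.18) and -0.34 in WD (-0.52 to -0.17). It was also lower under WD, by -0.47 without 7KC (-0.65 to -0.30) and -0.45 with it (-0.63 to -0.27). These ratios compare transcripts and not the amounts of the proteins.

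Pnpla3 (chromosome 15, 84167837 to 84187236) encodes a lipase relative of ATGL that sits on droplets and is raised by insulin and sugar feeding. It was at 0.510 FPKM in CD against 1.08 in CD+7KC, and 0.640 in WD against 0.922 in WD+7KC, an estimated 6.1, 13.2, 6.6 and 12.4 reads. Both libraries with 7KC were above both without it. No difference was detectable at this depth, because the interval of the log2 ratio ran from -0.40 to 2.78 in CD+7KC relative to CD and from -1.06 to 1.99 in WD+7KC relative to WD.

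**Figure D3:**
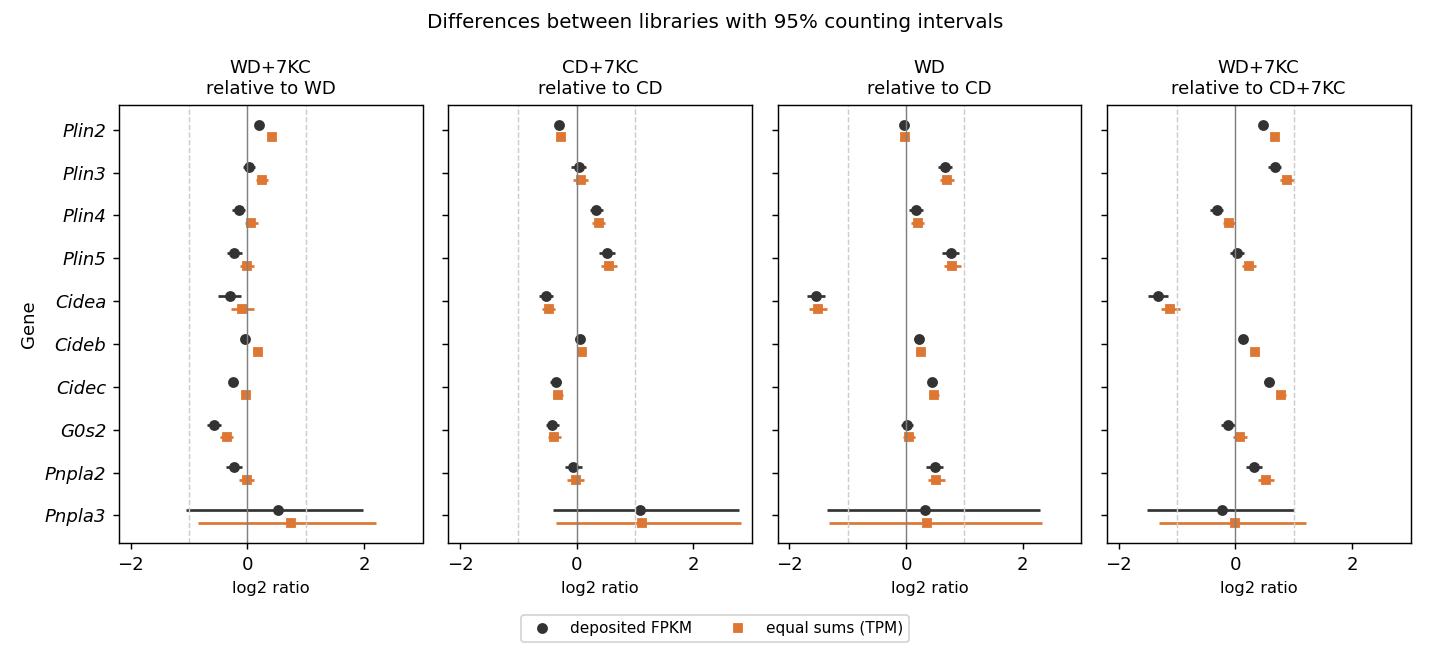
Log2 ratio of each gene in 4 comparisons of 2 libraries, with 95% counting intervals (horizontal lines), from the deposited FPKM values (circles) and after rescaling to equal sums (squares). Dashed lines mark 1 and -1, and Cidea is the gene beyond -1 in both comparisons of WD with CD diets (-1.54 and -1.33 with the deposited values). The point of Pnpla3 at 1.08 in CD+7KC relative to CD has an interval that includes 0.

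The 10 genes were set against all genes at a log2 fold change of 1, computed with 0.1 FPKM added to each value. With 10 genes, a count of none or 1 cannot be told apart from the shares of all genes given here. In WD+7KC relative to WD none of the 10 was above 1 and none below -1, where 6.21% and 2.79% of 15753 genes were. In CD+7KC relative to CD none was above 1 and none below -1, where 3.84% and 2.91% of 15684 genes were, and Pnpla3 was close to the limit with 0.95 (1.08 without the added 0.1 FPKM). In WD relative to CD none was above 1, as were 5.31% of 15597 genes, and 1, Cidea, was below -1, as were 4.38%. In WD+7KC relative to CD+7KC none was above 1, as were 8.01% of 15898 genes, and again Cidea was below -1, as were 4.61%. Many of the genes past these limits have low values. Among genes of at least 10 FPKM, the level range of 9 of the 10, 1.89% were below -1 in WD relative to CD and 3.51% in WD+7KC relative to CD+7KC. In WD+7KC relative to WD, 61 of 4862 such genes were above 1 and 30 below -1. In CD+7KC relative to CD, 37 of 4846 were above 1 and 29 below -1. At that level 0.786% of genes were at or below the change of Cidea in WD relative to CD and 2.24% in WD+7KC relative to CD+7KC. Of the calls past 1 or -1 among all genes, those above 1 made up 63.5% in WD+7KC relative to CD+7KC and 73.6% after rescaling.
The median log2 fold change of the 10 genes was -0.18 in WD+7KC relative to WD, beside 0.002 for all genes, with 3 higher and 7 lower. After rescaling it was 0.03, beside 0.21, with 5 higher and 5 lower. In CD+7KC relative to CD it was -0.01, beside -0.001 for all genes, with 5 higher and 5 lower. In WD relative to CD it was 0.25, beside 0.010, with 8 higher and 2 lower, and in WD+7KC relative to CD+7KC it was 0.07, beside 0.003, with 6 higher and 4 lower. Among genes of at least 10 FPKM, 9 of the 10 had a median of -0.22 in WD+7KC relative to WD, beside -0.11 for all such genes. After rescaling these medians were -0.006 and 0.10. At that level the medians were -0.06 beside -0.02 in CD+7KC relative to CD and 0.22 beside 0.01 in WD relative to CD. Between WD+7KC and CD+7KC they were 0.13 beside -0.07. The comparisons of diets and of 7KC share libraries, so they are not independent of each other.

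Other genes of droplet turnover were taken from lists. Of 11 lipolysis partners and other lipid hydrolases, none was above 1 or below -1 in WD+7KC relative to WD. In CD+7KC relative to CD 2 genes of this list, Hilpda and Pnpla5, were below -1, beside 2.91% of all genes. Hilpda encodes a hypoxia-induced droplet protein that, like G0s2, inhibits ATGL. It was at 9.27 FPKM in CD against 2.80 in CD+7KC, and 4.43 in WD against 6.66 in WD+7KC. CD was the high library and CD+7KC the low one, with a log2 fold change of -1.69 in CD+7KC relative to CD, -1.05 in WD relative to CD, 0.58 in WD+7KC relative to WD and 1.22 in WD+7KC relative to CD+7KC. Pnpla5 stayed below 1 FPKM in the 4 libraries. Abhd5, whose product activates ATGL, was between 15.0 and 18.4 FPKM, and Mgll, which encodes the lipase of the last step, between 95.4 and 120 FPKM. Lipe, which encodes hormone-sensitive lipase, was between 5.97 and 6.86 FPKM. In WD+7KC relative to WD the largest change of this list was 0.58 for Hilpda and the smallest -0.25 for Pnpla8. In the same comparison the list had a median of -0.09, with 3 genes higher and 8 lower, and in WD relative to CD a median of -0.07, with 5 higher and 6 lower.

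Of 14 droplet assembly genes, none was above 1 or below -1 in any of the 4 comparisons. Dgat2, which encodes a triglyceride-forming enzyme, stayed between 260 and 270 FPKM. The lowest value of the list in WD+7KC relative to WD was -0.99 for Tmem159, which encodes a partner of seipin, with 2.54 FPKM in WD and 1.23 in WD+7KC. The highest was 0.48 for Mogat1, which encodes an enzyme of diacylglycerol synthesis. In WD relative to CD these 2 genes were again the extremes of the list, with 0.86 for Tmem159 and -0.83 for Mogat1. The median was -0.07 in WD+7KC relative to WD, -0.04 in CD+7KC relative to CD, -0.20 in WD relative to CD and -0.11 in WD+7KC relative to CD+7KC.
Of 16 other droplet proteins, 15 were above 0 FPKM. Of these 1, Lpcat1, was above 1 in WD+7KC relative to WD, with a log2 fold change of 2.72. In that comparison 6.21% of all genes were above 1, and a count of 1 cannot be told apart from that share. Lpcat1 encodes an enzyme of phosphatidylcholine remodelling, and it was at 0.454 FPKM in CD against 0.582 in CD+7KC, and 0.226 in WD against 2.05 in WD+7KC, so that WD+7KC stood apart from the other libraries. Vps13c, which encodes a lipid transfer protein, was the 1 gene of the list below -1 in WD relative to CD, beside 4.38% of all genes. Vps13c was at 3.84 FPKM in CD against 3.45 in CD+7KC, and 1.84 in WD against 3.03 in WD+7KC. Hsd17b13, which encodes a droplet protein of hepatocytes, was at 614 FPKM in CD against 669 in CD+7KC, and 952 in WD against 875 in WD+7KC. The log2 fold change of Hsd17b13 in WD relative to CD was 0.63. The lowest change of the list in WD+7KC relative to WD was -0.32 for Mettl7a1. The list had a median of -0.12 in WD+7KC relative to WD, -0.005 in CD+7KC relative to CD, -0.04 in WD relative to CD and 0.005 in WD+7KC relative to CD+7KC.

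PPAR nuclear receptors control several droplet genes, and SREBP1c and ChREBP control lipogenesis. Of 20 PPAR regulators and targets, none was above 1 or below -1 in any of the 4 comparisons. Pparg, whose product drives fat storage genes in the fatty liver, was at 32.1 FPKM in CD against 26.5 in CD+7KC, and 22.5 in WD against 17.9 in WD+7KC, the same order of libraries as Cidea. Its log2 fold change was -0.51 in WD relative to CD and -0.56 in WD+7KC relative to CD+7KC. Ppara was at 59.0 FPKM in CD against 50.1 in CD+7KC, and 52.3 in WD against 42.3 in WD+7KC. Fgf21, which encodes a hormone of the fatty liver, had the largest change of the list in WD relative to CD, with 0.92, and Mogat1, which is in the assembly list too, the lowest. With 7KC the extremes were Cyp4a14 (0.42) and Ppard (-0.44) in CD and Ppard (0.59) and Fabp1 (-0.43) in WD. The median of the list was -0.16 in WD+7KC relative to WD, 0.003 in CD+7KC relative to CD, -0.17 in WD relative to CD and -0.15 in WD+7KC relative to CD+7KC.
Of 13 genes of the SREBP1c and ChREBP axis, 3 were below -1 in WD relative to CD, beside 4.38% of all genes, and none above 1. The 3 log2 fold changes were -1.18 for Mlxipl, which encodes ChREBP, -1.18 for the lipogenic regulator Thrsp and -1.10 for the fatty acid elongase gene Elovl6. Mlxipl was at 51.0 FPKM in CD against 63.2 in CD+7KC, and 22.4 in WD against 23.0 in WD+7KC. In WD+7KC relative to CD+7KC, 2 were below -1, Thrsp with -2.01 and Mlxipl with -1.46, beside 4.61% of all genes. The median of the list was -0.47 in WD relative to CD and -0.38 in WD+7KC relative to CD+7KC. With 7KC the extremes of this list were Fasn (0.54) and Scd1 (-0.15) in CD. In WD they were Fasn (0.58) and Srebf1 (-0.32), so none was above 1 or below -1 with 7KC under either diet. The median was 0.17 in CD, with 11 higher and 2 lower, and -0.02 in WD, with 6 higher and 7 lower. In WD only Srebf1 (-0.11) and Thrsp (-0.11) stayed below 0 after rescaling. After rescaling, the medians in WD+7KC relative to WD were 0.13 for the lipolysis partners, 0.14 for the assembly genes, 0.10 for the other droplet proteins, 0.06 for the PPAR list and 0.20 for the SREBP1c and ChREBP axis, beside 0.21 for all genes and 0.10 for genes of at least 10 FPKM. In WD+7KC relative to CD+7KC, rescaling turned the median of the assembly genes to 0.10 and that of the PPAR list to 0.05, beside 0.20 for all genes. The rescaled medians there were 0.25 for the lipolysis partners, 0.21 for the other droplet proteins and -0.17 for the SREBP1c and ChREBP axis.

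**Figure D4:**
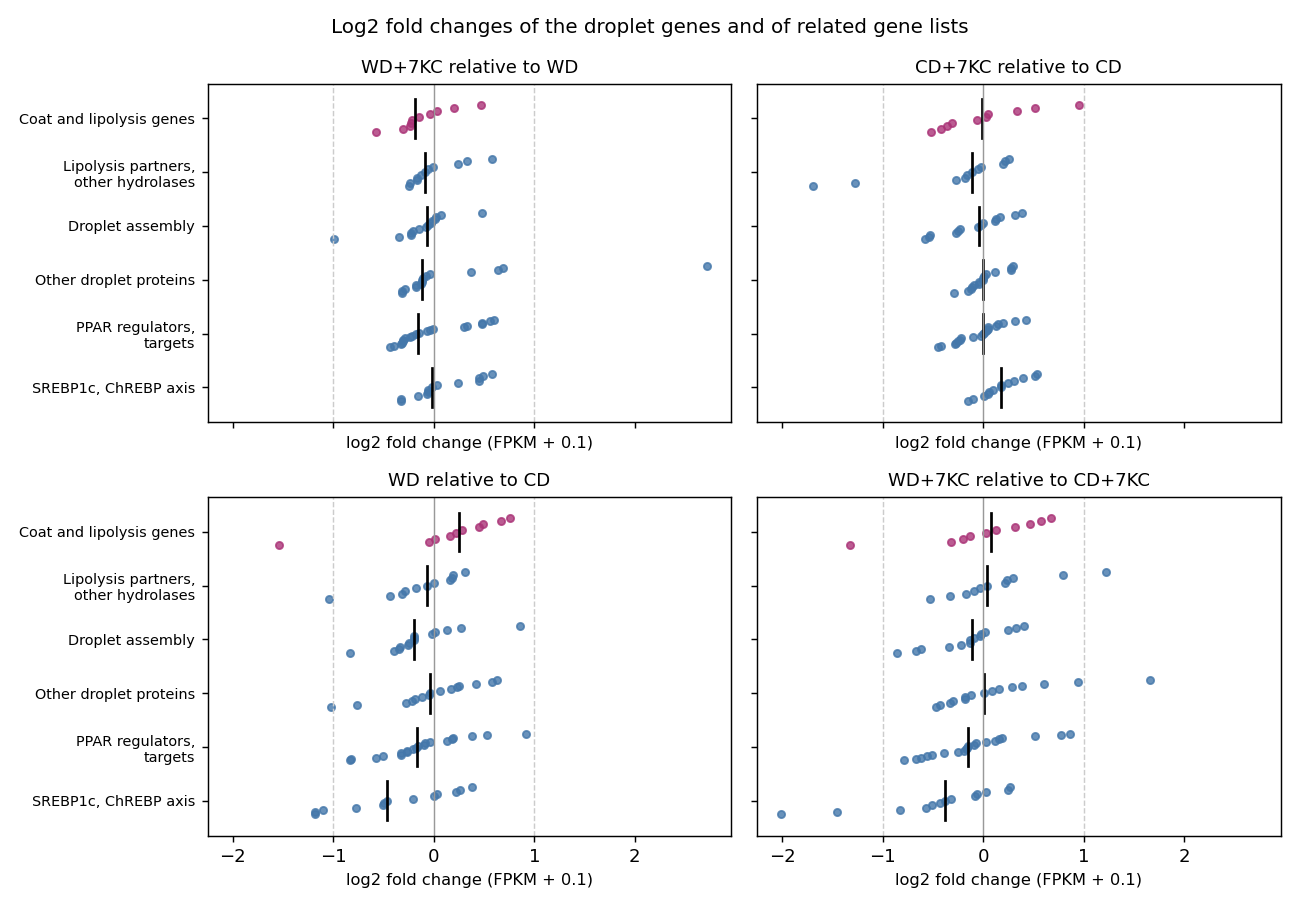
Log2 fold change (FPKM + 0.1) of the 10 droplet genes (top row of each panel) and of the genes of 5 related lists in 4 comparisons, 1 point per gene, with a vertical bar at the median of each list. In WD relative to CD the 10 genes have a median of 0.25 with Cidea at -1.54, and the SREBP1c and ChREBP list has a median of -0.47.

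Cidea was the 1 gene of the 10 whose levels spanned more than 1 on the log2 scale, with a span of 1.85. Among 10686 genes averaging 1 FPKM or more, the genes closest to its pattern over the 4 libraries, by the distance between log2 levels centred on their mean, were Gm10319 (distance 0.23), Cyp4f14 (0.24) and Pik3c2g (0.24). Cyp4f14, a cytochrome P450 gene, was at 53.3 FPKM in CD against 39.8 in CD+7KC, and 23.1 in WD against 16.6 in WD+7KC. With 4 libraries such a likeness is a description of the order and spacing of the levels.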

How the data were processed

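RNA was measured in liver from 4 groups of ob/ob mice, with 1 library per group. Per the study's methods and the submitters' processing notes, stranded mRNA libraries were sequenced as 75-base single-end reads and mapped to mm10 with TopHat2 2.0.13, Bowtie2 2.2.3 and SAMtools 0.1.19. The authors deposited FPKM values computed with Cufflinks 2.2.1, and the annotation, the Cufflinks options and the use of strand are not given in the sources used here.

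A pseudocount of 0.1 FPKM was added before log2 fold changes were taken, for genes above 0 FPKM in a library compared, which understates the change of low genes. Depth was estimated from the steps of low FPKM values over 13988 genes that have only 1 RefSeq mRNA, with the GENCODE vM21 transcript length minus 200 bases. Between 73.6% and 75.3% of low values came out within 0.1 of whole reads. Exact (Clopper-Pearson) 95% intervals on estimated reads were set around log2 ratios without a pseudocount, and exact conditional odds-ratio intervals around ratios of 2 genes. For Plin5, Cidec and Pnpla2, which have 2 RefSeq mRNAs, the shorter length was used. Reads without molecular identifiers are not independent molecules. Alternatives were pseudocounts of 1 and 0.01, a filter of 1 FPKM, TPM, median-ratio scaling, equal sums without the 20 highest genes and a threshold of 1.5-fold in place of 2-fold. The ratio without a pseudocount and the level of 10 FPKM were added after the data were seen.

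The members, the lists and the rule for named genes were chosen with earlier results of these data known. The text names all 10 genes, the genes of each list past 1 or -1 with at least 1 FPKM in a library compared or with an extreme change, and the 3 nearest patterns. Abhd5, Mgll, Lipe, Dgat2, Hsd17b13, Pparg, Ppara, Pnpla5, the marker genes and the overlapping genes were named for their role or position after their values were seen. Only the log2 fold change step was tested on simulated data, and the depth estimate, the intervals and the rescalings were not. All code was run with Python 3.11.15, numpy 2.4.6, pandas 2.3.3, scipy 1.17.1 and matplotlib 3.10.9.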

Additional observations from a re-analysis of the deposited data

Results flagged for a closer look

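In 4 of the 10 genes the log2 fold change with 7KC had opposite signs under CD and WD, and after rescaling to equal sums this held for 2 of them. With 1 library per group, the difference between the diets was not tested. For Plin2 the value was -0.31 in CD and 0.20 in WD, a difference of 0.51 (WD minus CD), and after rescaling -0.27 and 0.41. For Plin5 it was 0.51 in CD and -0.22 in WD, a difference of -0.74. After rescaling it was 0.55 and -0.006, the last with a counting interval that included 0 (-0.13 to 0.12). For Plin4 it was 0.34 and -0.15, a difference of -0.48, and after rescaling both were above 0, with 0.38 and 0.07. For Cideb it was 0.05 and -0.04, a difference of -0.0906, and after rescaling 0.09 and 0.17.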

How the results depend on the processing

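No paired analysis was possible because each group had 1 library. Of 40 log2 fold changes (10 genes in 4 comparisons), 3 changed sign after rescaling to equal sums: Plin4 (0.07) and Cideb (0.17) in WD+7KC relative to WD and G0s2 (0.08) in WD+7KC relative to CD+7KC. The same 3 changed sign with equal sums without the 20 highest genes (0.03, 0.13 and 0.06), and none did with median-ratio scaling, another pseudocount or none. No gene past 1 or -1 changed sign under an alternative run. Cidea was the gene below -1 in WD relative to CD and in WD+7KC relative to CD+7KC under every alternative. The median of the 10 genes in WD+7KC relative to WD moved from -0.1845 to 0.0314 after rescaling and to -0.0105 without the 20 highest genes, and in WD+7KC relative to CD+7KC from 0.07 to 0.28 and 0.27. In CD+7KC relative to CD, 1 gene, Pnpla3, was above 1 with a pseudocount of 0.01, without one or after rescaling. Pnpla3 was also above a threshold of 1.5-fold there, as were 1627 of 15684 genes. In WD relative to CD 2 of the 10 genes were above 1.5-fold, as were 2099 of 15597 genes. In WD+7KC relative to CD+7KC 1 of the 10 was, as were 2784 of 15898 genes. Counts of 1 or 2 of 10 cannot be told apart from these shares. The count of all genes past the limit depended on low values: in WD+7KC relative to WD, 978 above 1 and 440 below -1 became 140 and 49 with a pseudocount of 1, 1907 and 923 with 0.01, 414 and 107 at 1 FPKM or more, and 1629 and 453 after rescaling. In CD+7KC relative to CD, 603 and 456 became 65 and 48 with a pseudocount of 1 and 1375 and 1005 with 0.01. In WD relative to CD, 828 and 683 became 150 and 137 and 1575 and 1354. In WD+7KC relative to CD+7KC, 1274 and 733 became 316 and 225 and 2187 and 1395. The depth limits Pnpla3 above all, which rested on 6.1 to 13.2 estimated reads.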
